A study of Homo sapiens with 33 samples.

Results

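The 27 genes described here are linked to amyotrophic lateral sclerosis (ALS), frontotemporal dementia (FTD) or a related motor neuron disease and lie outside the RNA-binding proteins of those diseases. They were taken by name, 27 of the 44786 gene rows of the count tables. OPTN and SQSTM1 are autophagy receptors and TBK1 is their kinase, and VCP, UBQLN2 and CCNF serve ubiquitin and the proteasome. C9orf72, GRN, ANXA11, FIG4, VAPB, SPG11, SPTLC1, CHMP2B and TMEM106B act at lysosomes, endosomes and the endoplasmic reticulum (ER). PFN1, TUBA4A and SPAST are cytoskeletal, and C21orf2, GLE1, ELP3, NEK1 and LMNB1 serve the nucleus, cilium or tRNA. SOD1 and CHCHD10 are antioxidant and mitochondrial, ANG is a secreted ribonuclease and ERBB4 a receptor.

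Many of these proteins serve the clearance of damaged proteins and organelles. Ubiquitin marks these, VCP extracts marked proteins, and ubiquilins such as UBQLN2 shuttle proteins to the proteasome. The receptors OPTN and SQSTM1 tether marked cargo to autophagic membrane after phosphorylation by TBK1, and lysosomes that need GRN, TMEM106B and FIG4 degrade it. Another group serves the long axon of the motor neuron, through actin (PFN1), microtubules (TUBA4A, SPAST) and ER contact sites (VAPB). hnRNPA1, the gene mutated in these cells, is an abundant nuclear protein that binds RNA at motifs containing UAGGG, represses nearby splice sites and has a prion-like low-complexity domain, in which the ALS-linked D262V change lies.

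RNA-seq of 21 libraries, 3 in each of 7 groups, asked how the mutation changes splicing in a neuronal and a non-neuronal line. SH-SY5Y, a human noradrenergic neuroblastoma line, was profiled as undifferentiated wild type (WT) and homozygous D262V cells, and after 18 days of differentiation in retinoic acid (10 µM), with BDNF (50 ng/mL), dibutyryl cyclic AMP, potassium chloride and B-27 in the last medium, as WT, heterozygous and homozygous D262V cells. Flp-In T-REx 293, an embryonic kidney line, carried a tetracycline-inducible WT or D262V hnRNPA1 transgene and was induced at 1 µg/mL for 72 hr in both groups, so that the Flp-In cells also kept their own hnRNPA1 gene. Crosslinking maps of hnRNPA1 (irCLIP) came as 4 lists of RNA clusters, 1 each for WT and D262V of both lines, each pooled over its samples; the labels do not give the zygosity or state of the SH-SY5Y cells in those. The labels do not say whether replicates were separate cultures or whether the edited cells were 1 clone, so p-values measure the spread between these libraries, and in bulk RNA fewer expressing cells and less RNA per cell cannot be told apart.

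In units of 1e6 reads, the count tables held 87.3 to 158.7 per undifferentiated, 131.2 to 214.1 per differentiated and 35.3 to 49.08 per Flp-In library. Of these, 76.6 to 77.3%, 92.2 to 93.1% and 93.6 to 94.2% were assigned to no gene. The libraries came from a directional kit, and no source used here gives the strand setting of the counting. For 82.0 to 87.7% of the genes with listed splice junctions, depending on the comparison, the mean gene count was lower than the reads over the gene's single most-read junction. Among the members this held for 9 of 10 in undifferentiated cells: ELP3 had a mean gene count equal to 1.65% of its most-read junction and PFN1 2.67%. In at least 1 comparison the gene count exceeded the most-read junction for 5 members. For VAPB this was in heterozygous cells, where its 1 listed junction had a mean of 9.3 reads. In Flp-In cells its mean gene count of 17.2 was below the 166.3 reads of its most-read junction. SPG11 (with EIF3J), SQSTM1 (with MGAT4B and MRNIP) and CCNF are overlapped by another gene on the other strand, whereas C21orf2 and VAPB are overlapped by none; which strand the gene counts hold was not tested. A gene count far below the gene's most-read junction leaves out most of its spliced reads. Changes by gene counts below are therefore changes in these counts and are not shown to be changes in the gene's RNA. Levels are given in 2 ways, as gene counts and as reads over the gene's own listed junctions. Both are in CPM (counts per 1e6 counted reads) after TMM scaling. The splicing tables list selected events: every one of them holds a splice choice with the authors' p under 0.05, and 18 of the 27 members appear in at least 1 table. That selection favours usage values that do not overlap between groups, so a lack of overlap adds little by itself. Its share over all listed choices was not counted.

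The labelled cell types carried their markers in part. Of 10 noradrenergic markers, summed CPM of reads in genes was 354 to 388 in undifferentiated and 616 to 1020 in differentiated SH-SY5Y libraries, against 4.01 to 13.0 in Flp-In libraries. In these gene counts CHGA was at 0 throughout SH-SY5Y and TH was at 0 in all groups but differentiated WT. Such a 0 does not show that the gene was silent, since gene counts fell below spliced reads for most genes. Of 6 embryonic kidney markers, the sum was 4.62 to 10.0 in Flp-In and 0.00 to 6.89 in SH-SY5Y libraries, which overlap. Of 10 mesenchymal markers, the sum was 17.9 to 27.9 in differentiated WT, 30.8 to 32.7 in homozygous and 52.3 to 65.6 in heterozygous libraries, and 6 of 8 tested rose in heterozygous cells (COL3A1, VIM, SNAI2, SPARC, FN1 and YAP1). In undifferentiated cells it was 23.2 to 25.8 in WT and 76.9 to 118 in homozygous libraries, with COL3A1 and VIM risen of 4 tested. Of 7 Schwann and glial markers, the sum was 27.1 to 34.5 in differentiated WT, 26.3 to 28.3 in homozygous and 45.1 to 50.7 in heterozygous libraries. Of 5 tested in heterozygous cells, FABP7 rose. The part of these cells or states in the results below was not tested.

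By gene counts and junction reads, few members changed in any D262V comparison, and the shares were near or below those of all genes. By gene counts (edgeR's quasi-likelihood test, Benjamini-Hochberg adjusted p under 0.05), 0 of 14 tested members passed in undifferentiated homozygous cells, where 3.67% of all genes did; SQSTM1 alone had an unadjusted p under 0.05, and DESeq2 called it. In differentiated homozygous cells 0 of 23 passed against 6.08% of genes, with 3 at an unadjusted p under 0.05 and 0 called by DESeq2. In differentiated heterozygous cells 3 of 23 passed against 16.4%: PFN1 and SQSTM1 fell (8.47% of genes did) and GLE1 rose (7.97%). In Flp-In cells 1 of 19 passed against 5.84%, namely C21orf2, which fell, as 3.08% of genes did. By junction reads, 3 of 10 members passed in differentiated homozygous cells (C9orf72 and OPTN up, SQSTM1 down) where 32.7% of genes did, 16.6% up and 16.1% down. With the same edgeR test 0 of 10 passed in undifferentiated cells, against 11.1% of genes, with 2 members at an unadjusted p under 0.05. It called 0 of 7 in heterozygous cells, against 25.3%, with 4 at an unadjusted p under 0.05. In Flp-In cells it called 0 of 6, against 16.6%, with 0 at an unadjusted p under 0.05. DESeq2 called 0 in each of these. The 95% interval of the log2 fold change by gene counts reached 0.80 to either side of the estimate for the median member in undifferentiated cells, 0.49 in differentiated and 0.94 in Flp-In cells.

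**Figure D1:**
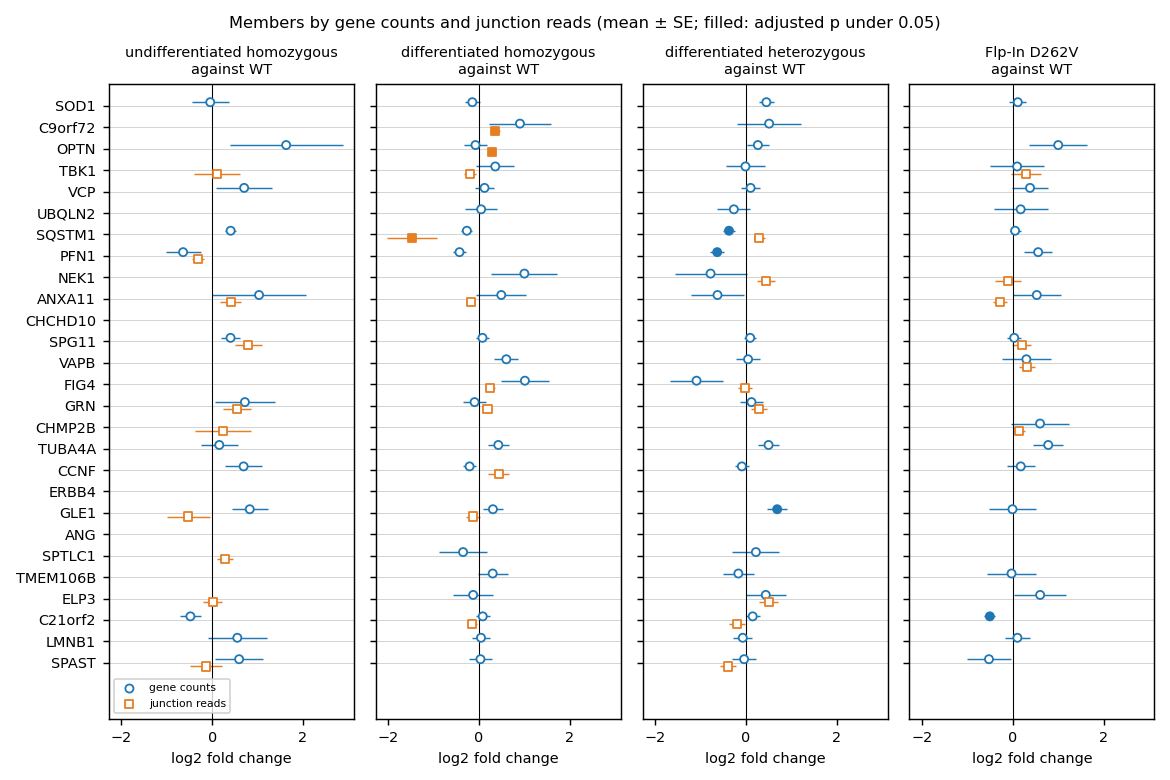
Log2 fold change of each member (rows) against WT in the 4 D262V comparisons, by gene counts (circles) and junction reads (squares), as estimate ± SE from edgeR, n = 3 libraries a group; filled symbols have adjusted p under 0.05 and a missing symbol was not tested. Filled symbols are few, and for SQSTM1 the 2 measures lie on opposite sides of 0 in heterozygous cells.

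C9orf72 encodes part of a complex that regulates endosomal and autophagic traffic, and an expanded GGGGCC repeat in its first intron is a frequent inherited cause of ALS and FTD. The intron has 2 alternative first exons, and its junctions were the only ones listed for the gene. Transcripts from the distal first exon (1a) carry the repeat in their intron, whereas the proximal first exon (1b) starts downstream of it, so the stretch between them is shown. It runs from chr9:27573482-27573731 (GRCh38.p14, minus strand, RefSeq promoter window), with the last 23 bases of exon 1a, then in capitals the donor GT and the 3 repeat copies of the reference, and ends 1 base before the start site of exon 1b at 27573481.
C9orf72 exon 1a donor to exon 1b: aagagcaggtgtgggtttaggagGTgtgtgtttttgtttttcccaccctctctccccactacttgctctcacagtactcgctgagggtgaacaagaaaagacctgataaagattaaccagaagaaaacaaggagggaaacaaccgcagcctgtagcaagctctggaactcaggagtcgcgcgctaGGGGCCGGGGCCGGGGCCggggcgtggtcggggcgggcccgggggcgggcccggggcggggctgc
The repeat length in these cells was not measured. A run of 3 GGGGCC copies (either strand) occurs in 0.0285% of the 35116 promoter windows of 300 bases. TAGGG, an hnRNPA1-type motif, occurs on either strand in 32.8% of them and in 9 of 33 windows of the members, here overlapping the first repeat copy.

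In differentiated cells the junction reads of C9orf72 were higher in homozygous D262V than in WT libraries. The 3 WT libraries held 676, 1004 and 725 reads (25.7, 25.3 and 26.9 CPM) and the homozygous libraries 994, 856 and 1166 (33.0, 32.3 and 34.2 CPM). The CPM values did not overlap, and the log2 fold change was 0.36 (SE 0.11, adjusted p = 0.0145, edgeR). The call was lost without homozygous replicate 3 (0.33, adjusted p = 0.056) or WT replicate 2 (0.34, adjusted p = 0.0585). Of these reads, 51, 49 and 49 in WT and 84, 85 and 120 in homozygous libraries came from exon 1a, a usage of 7.54, 4.88 and 6.76% against 8.45, 9.93 and 10.3%. These shares did not overlap either, which the selection of listed events favours. In the authors' deposited table the adjusted p was 0.53, so the shift of 3.16 percentage points toward the repeat-carrying exon did not pass. Gene counts of C9orf72 were 7 to 27 reads in these libraries, too few to show a change of this size.

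GRN encodes progranulin, a secreted precursor of lysosomal granulins whose loss of 1 copy causes FTD. Its first exon ends in the donor shown here, with the GT in capitals, within chr17:44345320-44345349 (GRCh38.p14, plus strand, RefSeq window); reads joined either this donor or a second one downstream to the same acceptor.
GRN first donor: cggagtcggacgcagGTaggagagcggccg
In undifferentiated cells the second donor (chr17:44345605-44349156 as the table gives the junction) took 2.52, 2.89 and 9.68% of the reads in WT and 18.6, 20.2 and 12.4% in homozygous libraries, with 93 to 350 reads over the choice. The groups did not overlap, and the authors' deposited adjusted p was 0.30. In differentiated cells the same donor took 14.3, 14.7 and 14.7% in WT and 14.3, 13.8 and 10.7% in homozygous libraries, at 3644 or more reads a library, and the ranges overlapped. Junction reads of GRN gave log2 fold changes of 0.54 (SE 0.30) in undifferentiated, 0.18 (SE 0.09) in differentiated homozygous and 0.29 (SE 0.18) in heterozygous cells, and none passed the test (adjusted p = 0.306, 0.0923 and 0.265, edgeR). A rare GRN junction (chr17:44351388-44351548) had an adjusted p of 0.0142 in the authors' deposited table for heterozygous cells, at 0.86, 0.36 and 0.37% of reads in WT and 0.08, 0.00 and 0.00% in heterozygous libraries. In homozygous libraries it was at 0.26, 0.17 and 0.09% (adjusted p = 0.446 in the authors' table).

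ANXA11, an annexin that tethers RNA granules to lysosomes for axonal transport, was the only member with a called junction in Flp-In cells. Calls on usage needed an adjusted p under 0.05 from the authors, a difference of 10 percentage points or more, a minimum of 20 reads over the choice per library and no overlap of groups. In Flp-In cells 1 of 6 listed members and 3.91% of listed genes met this. The acceptor at chr10:80176155 was joined to the first-exon donor (chr10:80176155-80205341, minus strand) in 98.5, 100 and 97.3% of reads in WT and 92.3, 84.6 and 84.5% in D262V libraries, on 58 to 137 reads. The remainder used a downstream donor (chr10:80176155-80180939), which rose from 1.46, 0.00 and 2.75% to 7.69, 15.4 and 15.5%. The authors' deposited adjusted p was 0.0148 for the first and 0.0293 for the second junction, and the difference was 11.5 points. In undifferentiated SH-SY5Y cells the first exon chose this acceptor, among others, in 47.4, 24.5 and 43.2% of reads in WT and 59.0, 57.8 and 82.5% in homozygous libraries (adjusted p = 0.433 in the authors' table). In the Flp-In table, which lists 1 acceptor fewer for this donor, so that the shares have another denominator, it went from 71.8, 63.2 and 69.7% to 62.1, 60.6 and 53.9% (adjusted p = 0.567 in the authors' table). Junction reads of ANXA11 did not pass in any comparison. In differentiated homozygous cells all 3 libraries (53.1, 54.8 and 51.7 CPM) lay below all WT libraries (60.4, 59.8 and 60.5 CPM), with a log2 fold change of -0.18 (SE 0.10, adjusted p = 0.155, edgeR).

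FIG4, a phosphoinositide phosphatase of the endolysosome, differed between homozygous and heterozygous differentiated cells by gene counts. It had 45, 56 and 30 reads in homozygous, 9, 12 and 5 in heterozygous and 6, 45 and 24 in WT libraries (4.07 ± 1.71, 0.94 ± 0.39 and 1.97 ± 1.21 CPM; SD, n = 3). Homozygous libraries lay above heterozygous ones without overlap (log2 difference 2.10, SE 0.57, adjusted p = 0.0115, edgeR), in a comparison where 2 of 23 members and 15.9% of genes passed; without homozygous replicate 2 it was 1.77 (adjusted p = 0.0951). These counts are small beside the FIG4 junctions, whose most-read one had a mean of 698.5 reads in the homozygous and 582.7 in the heterozygous comparison. By junction reads FIG4 moved by 0.25 (SE 0.11, adjusted p = 0.08) in homozygous and by -0.02 (SE 0.15, adjusted p = 0.93) in heterozygous cells against the same WT libraries. The spliced reads of the 2 genotypes were not compared with each other, since each table lists its own junctions. The gene's annotation places it at chr6:109691296-109825426 with no overlapping gene in RefSeq.

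VAPB, an ER protein at membrane contact sites, had a short intron (chr20:58448842-58448923) spliced in all 16, 18 and 7 WT reads, against 6 of 11, 4 of 8 and 5 of 10 reads in heterozygous libraries, with an adjusted p of 0.00206 in the authors' deposited table. These 7 to 18 reads a library fell short of the 20 required, so it was not called. SPG11 (spatacsin, lysosome reformation) had junction reads of 290, 117 and 138 in WT and 421, 378 and 341 in undifferentiated homozygous libraries, which did not overlap in CPM, and a log2 fold change of 0.79 (SE 0.30, adjusted p = 0.0951, edgeR). SPTLC1, a subunit of the enzyme that starts sphingolipid synthesis, gave 0.29 (SE 0.18, adjusted p = 0.37) there. CHMP2B, an ESCRT-III subunit, gave 0.23 (SE 0.62) in undifferentiated and 0.14 (SE 0.12) in Flp-In cells by junction reads; its alternative donor in undifferentiated cells took 15.6, 30.8 and 100% of reads in WT and 10.9, 0.00 and 0.00% in homozygous libraries (adjusted p = 0.465 in the authors' table). TMEM106B, a lysosomal membrane protein and FTD risk gene, had no listed junction, and its gene counts moved by -0.17 to 0.30 in the 3 comparisons with WT in which it was tested, with no call.

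**Figure D2:**
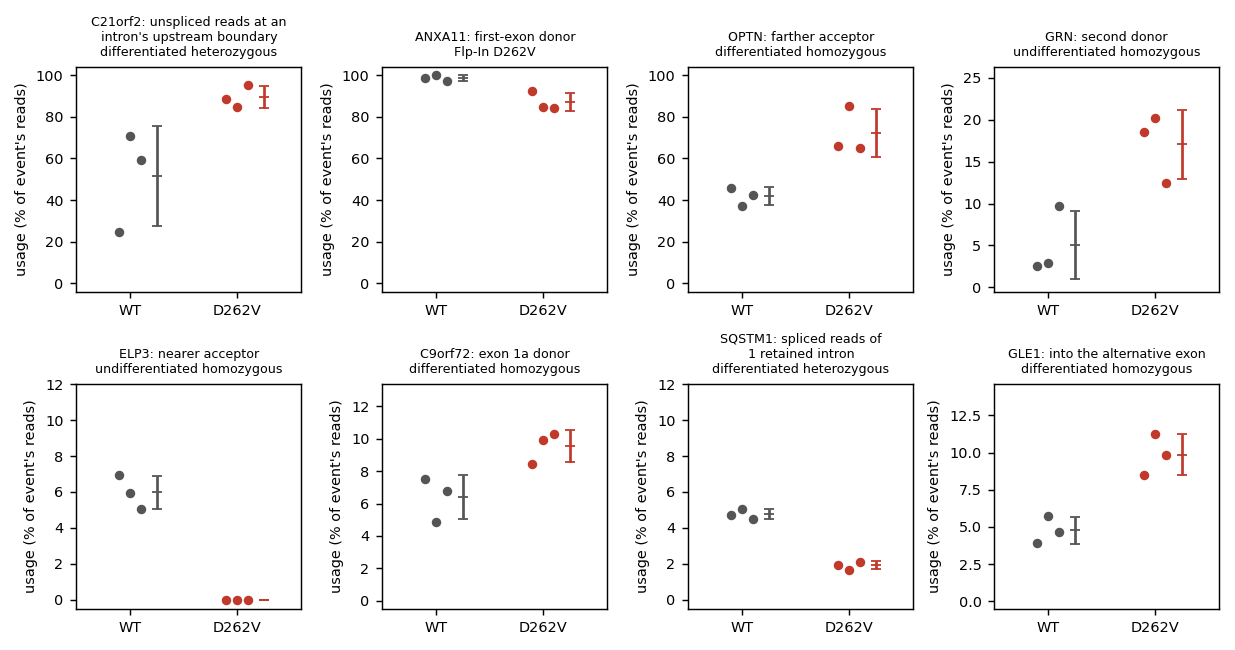
Usage of 1 splice choice in each of 8 members, as percent of the reads over the choice, in WT (grey) and D262V (red) libraries (points, n = 3; bars, mean ± SD); axes differ between panels. C21orf2 and ANXA11 were called; the other 6 choices, picked for the plot after their values were seen, missed the adjusted p, the size or both.

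OPTN, the receptor that links ubiquitinated mitochondria to autophagic membrane, rose by junction reads in differentiated homozygous cells. WT libraries held 3353, 4463 and 3223 reads over 12 junctions (127, 112 and 120 CPM) and homozygous libraries 4242, 3903 and 5006 (141, 147 and 147 CPM). All homozygous values were above all WT values, and the log2 fold change was 0.28 (SE 0.08, adjusted p = 0.0097, edgeR). The call was lost without WT replicate 2 (0.23, adjusted p = 0.0742) and with the most-read junction alone (0.22, adjusted p = 0.116); gene counts, at 6.71% of that junction, gave -0.08 (SE 0.25). OPTN also showed the largest shift in usage among members in that comparison with 20 or more reads. From the donor at chr10:13109015 a farther acceptor (13109110) was used in 45.7, 37.2 and 42.4% of reads in WT and 65.8, 85.4 and 65.1% in homozygous libraries, at the expense of a nearer one (13109095). With 33 to 63 reads the authors' deposited adjusted p was 0.155, and 0 of 10 listed members were called there, where 5.62% of listed genes were. With the authors' unadjusted p, a choice made after seeing the data, OPTN was the 1 member called there, against 27.1% of listed genes.

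SQSTM1 (p62), the other receptor, gave opposite directions by its measures. MGAT4B and MRNIP overlap it on the other strand. Its mean gene count was 3507.2, against 1821.5 reads over its most-read junction, in the heterozygous comparison. Which of these genes the counts hold was not tested. By gene counts SQSTM1 was 364, 382 and 365 CPM in differentiated WT, 303, 311 and 306 CPM in homozygous and 326, 301 and 229 CPM in heterozygous libraries. Both D262V groups lay below WT without overlap: the log2 fold change was -0.27 (SE 0.12, adjusted p = 0.246) in homozygous and -0.37 (SE 0.13, adjusted p = 0.0373) in heterozygous cells (edgeR); these share their WT libraries. Over 12 junctions, the heterozygous libraries (147, 169 and 131 CPM) lay above WT (121, 125 and 120 CPM), with a log2 fold change of 0.29 (SE 0.13, adjusted p = 0.0971). The gene count call was lost without WT replicate 1, 2 or 3 (adjusted p = 0.0827, 0.123 and 0.0878) or heterozygous replicate 3 (-0.24, adjusted p = 0.0976). In undifferentiated cells the gene counts were 446, 377 and 384 CPM in WT and 496, 550 and 551 CPM in homozygous libraries, a log2 fold change of 0.41 (SE 0.12, adjusted p = 0.0859). The difference between the homozygous effects of the 2 states, a test added after these values were seen, was -0.67 (SE 0.13, adjusted p = 0.00861, edgeR), and SQSTM1 was the only one of 23 members to pass it, against 4.5% of genes.

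A short intron of SQSTM1 (chr5:179835100-179835251) was mostly unspliced in all differentiated libraries. Its spliced share at the upstream boundary was 4.74, 5.04 and 4.49% in WT and 1.93, 1.68 and 2.13% in heterozygous libraries, and 4.48, 4.70 and 4.88% against 2.38, 3.67 and 0.67% in homozygous ones, all on the same WT libraries. The shares did not overlap, and the authors' deposited adjusted p was 0.214 and 0.533. A second short intron, nearer the 3′ end (chr5:179837873-179838018), went the other way in the heterozygous table, with a spliced share of 50.0, 52.8 and 26.7% in WT and 87.5, 56.25 and 100% in heterozygous libraries, on 6 to 36 reads (adjusted p = 0.254 in the authors' table). The first of these introns (chr5:179835100-179835251) was the only SQSTM1 junction in the homozygous table. The junction reads called there were 20, 27 and 20 in WT and 9, 11 and 3 in homozygous libraries (log2 fold change -1.48, SE 0.56, adjusted p = 0.0376, edgeR). They describe that first intron and not the gene. That call was lost in 7 of 11 alternatives, among them without homozygous replicate 1 or 3 (adjusted p = 0.0717 and 0.205) or WT replicate 1, 2 or 3 (0.0775, 0.0873 and 0.0658). TBK1, the kinase of both receptors, did not pass by either measure: junction reads gave 0.11 (SE 0.51) in undifferentiated, -0.20 (SE 0.14) in differentiated homozygous and 0.29 (SE 0.33) in Flp-In cells.

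**Figure D3:**
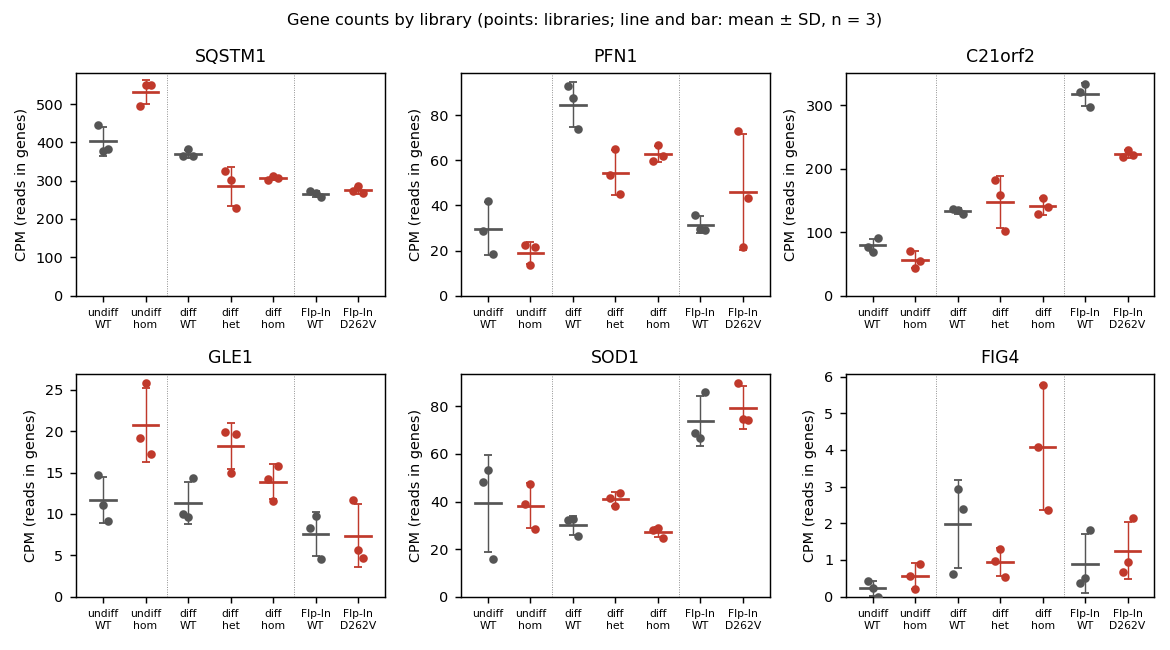
Gene counts in CPM after TMM scaling of 6 members in all 21 libraries (points) with the mean and SD of each group (n = 3); WT grey, D262V red, dotted lines part the 3 separately scaled tables. SQSTM1 is above WT in undifferentiated and below it in differentiated D262V cells, and C21orf2 is lower in Flp-In D262V libraries, with no overlap. MGAT4B and MRNIP lie on the other strand of the SQSTM1 locus.

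The ubiquitin and proteasome members showed no called change in any D262V comparison with WT. VCP, the segregase that unfolds ubiquitinated proteins, moved by 0.70 (SE 0.62), 0.12 (SE 0.21), 0.10 (SE 0.22) and 0.38 (SE 0.39) by gene counts in undifferentiated homozygous, differentiated homozygous, heterozygous and Flp-In cells. UBQLN2, a shuttle to the proteasome, gave 0.05 (SE 0.36), -0.27 (SE 0.37) and 0.17 (SE 0.60) in the last 3. Neither had a listed junction. CCNF, the cyclin F subunit of an SCF ubiquitin ligase, had 108, 154 and 137 junction reads in differentiated WT and 180, 123 and 236 in homozygous libraries, a log2 fold change of 0.43 (SE 0.23, adjusted p = 0.143, edgeR). Its gene counts, on a locus overlapped by an uncharacterised gene on the other strand, gave -0.21 (SE 0.15). Its farther acceptor (chr16:2433067-2435817) took 3.70, 0.65 and 2.92% of reads in WT and 5, 11.4 and 8.90% in homozygous libraries (adjusted p = 0.337 in the authors' table).

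PFN1, the actin-binding profilin, fell by gene counts in heterozygous cells. The differentiated WT libraries had 93.0, 87.5 and 73.8 CPM, the heterozygous 53.6, 65.2 and 45.1 CPM and the homozygous 59.9, 67.0 and 61.8 CPM. Both D262V groups lay below WT without overlap: the log2 fold change was -0.63 (SE 0.15, adjusted p = 0.00305) in heterozygous and -0.43 (SE 0.15, adjusted p = 0.0867) in homozygous cells (edgeR). The heterozygous call held in all 11 alternatives, with adjusted p from 0.000653 to 0.0294. PFN1 had no listed junction in differentiated cells. In undifferentiated cells, where it had, 3487 to 5990 junction reads a library set against 63 to 182 gene counts gave -0.32 (SE 0.13, adjusted p = 0.128), with overlapping CPM. TUBA4A, an α-tubulin that axons need, had gene counts above WT without overlap in heterozygous (0.50, SE 0.24, adjusted p = 0.165) and Flp-In cells (0.78, SE 0.34, adjusted p = 0.203), on a locus overlapped by STK16 and TUBA4B on the other strand. SPAST, the microtubule-severing spastin, skipped an exon (junction chr2:32089605-32114636) in 16.8, 19.1 and 19.5% of the reads into the acceptor in WT and 13.9, 12.5 and 8.68% in heterozygous libraries (adjusted p = 0.269 in the authors' table). As a share of the reads from the donor it was 10.8, 16.05 and 16.5% in WT and 13.8, 8.96 and 7.5% in heterozygous libraries, which overlap (adjusted p = 0.589). SPAST junction reads moved by -0.39 (SE 0.17, adjusted p = 0.0967, edgeR).

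C21orf2 (CFAP410), a ciliary protein that partners the kinase NEK1, was the only member with a called splice change in heterozygous cells, where 1 of 8 listed members and 16.1% of listed genes were called. Reads left unspliced at the donor side of its intron chr21:44333262-44334059 (minus strand) were 24.4, 70.6 and 59.5% in WT and 88.6, 84.8 and 95.4% in heterozygous libraries, a mean difference of 38.0 points on 43 to 166 reads (adjusted p = 0.0453 in the authors' deposited table). WT replicate 1 lay far below the other WT libraries. The spliced share of the same choice, its complement, had an adjusted p of 0.0552 in the authors' table and was not called. At the acceptor side the unspliced share went from 74.3, 86.9 and 83.4% to 91.0, 92.3 and 98.2% (adjusted p = 0.131 in the authors' table). Spliced reads of the intron fell from 68, 42 and 32 to 19, 14 and 2. In the homozygous table the same junction had 37, 29 and 45 reads and 8.28, 7.90 and 7.80% of its splice choice, within the WT range of 5.98 to 11.97%. By gene counts C21orf2 was 183, 158 and 102 CPM in heterozygous and 136, 135 and 128 CPM in WT libraries (log2 fold change 0.15, SE 0.15), and its junction reads gave -0.19 (SE 0.18). In Flp-In cells gene counts fell from 321, 334 and 298 CPM in WT to 219, 230 and 221 CPM in D262V libraries (log2 fold change -0.51, SE 0.12, adjusted p = 0.0116, edgeR), a call lost without WT replicate 1, 2 or 3 (adjusted p = 0.0875, 0.0978 and 0.0767) or D262V replicate 3 (0.111).

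GLE1, an mRNA export factor, rose by gene counts in heterozygous cells from 10.0, 9.67 and 14.3 CPM in WT to 19.9, 15.0 and 19.7 CPM. The log2 fold change was 0.69 (SE 0.22, adjusted p = 0.0305, edgeR), without overlap. It did not pass without WT replicate 1 or 2 (0.61 and 0.57; adjusted p = 0.13 and 0.164) or heterozygous replicate 1 or 3 (0.62 and 0.63; adjusted p = 0.097 and 0.067), and LOC101929270 overlaps the gene on the other strand. GLE1 reads into an alternative exon (junction chr9:128504904-128507214) were 3.92, 5.75 and 4.63% of the choice in differentiated WT and 8.51, 11.2 and 9.83% in homozygous libraries (adjusted p = 0.214 in the authors' table). At the other end of the exon (chr9:128507340-128508874) the shares overlapped, at 4.17, 3.62 and 7.57% in WT and 8.08, 6.64 and 6.50% in homozygous libraries (adjusted p = 0.824 there). In undifferentiated cells the junction into the exon had 1.32, 4.40 and 32.8% in WT, where replicate 3 stood far above the others, and 0.00% in all 3 homozygous libraries (adjusted p = 0.361 in the authors' table). Its other end overlapped there too, at 8.54, 13.6 and 0.00% in WT and 0.00% in homozygous libraries (adjusted p = 0.422).

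ELP3, the catalytic subunit of the tRNA-modifying Elongator complex, had the smallest adjusted p of any member junction in the authors' deposited tables. In undifferentiated cells its exon was joined to the nearer of 2 acceptors in 14, 15 and 11 reads of WT (6.93, 5.95 and 5.07%) and in 0 reads of all 3 homozygous libraries, whose 171 to 342 reads used the farther one (adjusted p = 0.000648 for the farther and 0.0123 for the nearer). The change of 5.98 points was under the 10 required, and 0 of 10 listed members were called in that comparison, where 8.51% of listed genes were. With the authors' unadjusted p, 4 members (ANXA11, CHMP2B, GLE1 and GRN) were called, against 29.5%. In heterozygous cells its junction reads moved by 0.50 (SE 0.21, adjusted p = 0.0904, edgeR). NEK1 had junction reads above WT without overlap in heterozygous cells (9.49, 7.66 and 10.1 CPM against 7.06, 6.34 and 6.70 CPM; 0.44, SE 0.20, adjusted p = 0.121). In Flp-In cells an exon of it was included in 84.5, 68.4 and 64.0% of reads in WT and 97.7, 85.4 and 90.6% in D262V libraries, on 19 to 58 reads (adjusted p = 0.329 in the authors' table). On the other side of that exon the shares overlapped, at 88.6, 73.9 and 78.05% in WT and 96.55, 72.7 and 92.5% in D262V libraries (adjusted p = 0.803). LMNB1, a nuclear lamina protein, moved by 0.55 (SE 0.65), 0.04 (SE 0.21), -0.07 (SE 0.21) and 0.10 (SE 0.28) by gene counts.

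SOD1, the cytosolic superoxide dismutase, was higher in heterozygous than in homozygous differentiated cells by gene counts. It was 32.1, 32.6 and 25.4 CPM in WT, 41.4, 38.0 and 43.7 CPM in heterozygous and 27.8, 28.7 and 24.8 CPM in homozygous libraries. The heterozygous libraries lay above both other groups. The log2 difference of homozygous minus heterozygous was -0.60 (SE 0.16, adjusted p = 0.0112, edgeR), where 8.55% of genes were higher and 7.33% lower, and it held in all 10 alternatives (adjusted p from 0.00151 to 0.0476). That of heterozygous minus WT was 0.45 (SE 0.16, adjusted p = 0.0572) and that of homozygous minus WT was -0.15 (SE 0.16, adjusted p = 0.718; edgeR). SOD1 had no listed junction, so its spliced reads were not analysed here. CHCHD10, a mitochondrial cristae protein, had 0 gene counts in all 21 libraries, and ANG had 2 reads in 1 Flp-In library; a count of 0 allows up to 0.196 to 1.5 CPM, depending on the library. ERBB4, a neuregulin receptor, had 0 to 10 reads a library and was not tested. Where gene counts fall so far below spliced reads, a count of 0 does not show that the gene was silent.

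More members differed between the states of WT cells than in any D262V comparison, and so did more of all genes. By gene counts 10 of 23 members and 43.1% of genes passed between differentiated and undifferentiated WT cells, 7 members up (26.6% of genes) and 3 down (16.5%). The state and the count table cannot be told apart, and the median gene moved by 0.39. PFN1 rose from 30.9, 45.2 and 19.8 CPM to 86.5, 81.8 and 68.1 CPM (log2 fold change 1.296, SE 0.26, adjusted p = 0.000948, edgeR). OPTN rose from 3.27, 0.75 and 0.00 CPM (14, 3 and 0 reads) to 7.82, 12.4 and 7.77 CPM (2.72, SE 0.71, adjusted p = 0.00593, edgeR). Both held in all 10 alternatives. The mean gene count was 2.67% of the most-read junction for PFN1 in the undifferentiated comparison. For OPTN it was 6.71% in the differentiated homozygous comparison. Junction reads were not compared between the states, so a change in the spliced RNA of these genes was not tested. FIG4 (2.79), VAPB (1.95), CCNF (1.00) and C21orf2 (0.55) also rose, the last by 0.16 more than the median gene. NEK1 had 0 reads in the undifferentiated WT libraries together and 34 in the differentiated ones, at least 4.1-fold higher against a floor of 3 counts over the group. TUBA4A (-1.26), SPG11 (-0.48) and SQSTM1 (-0.33) fell. Leaving out 1 library moved the count between 5 (without differentiated WT replicate 3; 6 without replicate 1) and 11. The calls of NEK1 and FIG4 were each lost in 6 of 10 alternatives, of SPG11 in 5, of SQSTM1 in 3, of TUBA4A in 2 and of C21orf2, CCNF and VAPB in 1.

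**Figure D4:**
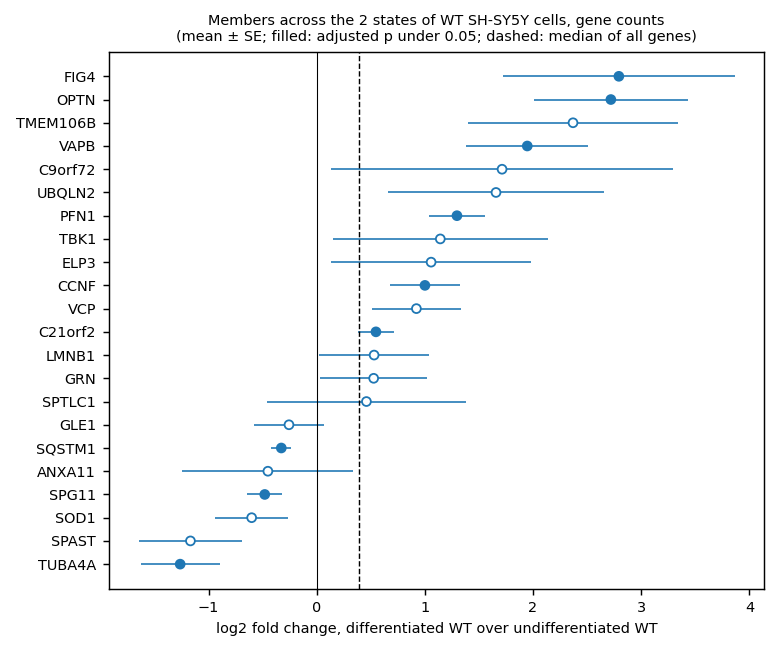
Log2 fold change by gene counts between differentiated and undifferentiated WT SH-SY5Y cells for the 22 tested members other than NEK1, as estimate ± SE (n = 3 libraries a state); filled points have adjusted p under 0.05 and the dashed line is the median of all genes, 0.39. FIG4, OPTN, VAPB, PFN1, CCNF and C21orf2 are filled above 0, and TUBA4A, SPG11 and SQSTM1 below it.

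Genes that work with the members were counted from 4 lists by junction reads. In differentiated homozygous cells 4 of 16 autophagy genes rose and 2 fell (median 0.16, all genes 0.01), among them the initiation scaffold RB1CC1 (0.58, SE 0.14) and the kinase ULK2 (0.42, SE 0.13) up and GABARAP, an autophagic membrane tag, down (-0.37, SE 0.08). Of 12 VCP cofactors, ubiquilins and proteasome subunits 2 rose and 5 fell, with ADRM1, a proteasomal ubiquitin receptor, at -0.41 (SE 0.08) and UBQLN4 at 0.25 (SE 0.08). Of 13 lysosome and ESCRT genes 4 rose, LAMP2 most (0.74, SE 0.14), and 3 fell, with CHMP2A, an ESCRT-III partner of CHMP2B, at -0.42 (SE 0.08). Of 15 direct partners 3 rose and 2 fell. NRG1, the ligand of ERBB4, went from 16.6 ± 1.35 CPM in WT to 8.38 ± 0.70 in homozygous cells (log2 fold change of -0.98, SE 0.16, adjusted p = 3.16e-06, edgeR). CCS, which loads copper into SOD1, went from 108 ± 18.8 to 73.1 ± 6.74 CPM (-0.56, SE 0.10, adjusted p = 3.72e-05; SD, n = 3). The shares called in these lists stand beside 32.7% of all genes in that comparison.

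In heterozygous cells, where 25.3% of all genes passed by junction reads, 1 of 21 autophagy genes rose and 1 fell, 1 of 19 in the proteasome list fell (PSMD4, -0.51, SE 0.13), and 5 of 17 lysosome genes rose and 1 fell. The 5 encode the cathepsin CTSB, the hydrolases GAA and HEXA, the cholesterol transporter NPC1 and prosaposin (PSAP), and HEXA was 120 ± 5.41 CPM in WT and 182 ± 17.2 CPM in heterozygous cells (log2 fold change of 0.60, SE 0.12, adjusted p = 0.00178, edgeR). Of 13 partners 1 rose and 2 fell, with S100A6, a calcium sensor that binds ANXA11, down from 314 ± 31.7 to 40.1 ± 3.37 CPM (-2.97, SE 0.13, adjusted p = 1.6e-10; SD, n = 3). In undifferentiated homozygous cells, where 11.1% of all genes passed, 3 of 9 lysosome genes rose and none fell, HEXA by 1.08 (SE 0.14), GAA by 0.72 (SE 0.17) and PSAP by 0.66 (SE 0.11), beside 1 of 13 autophagy genes, 1 of 17 in the proteasome list and 3 of 9 partners in either direction. The sum of the mesenchymal markers given above was higher than in WT in these 2 groups and, by less, in differentiated homozygous cells. In the latter 4 of 13 lysosome genes rose and 3 fell. The part of the marker difference in the lysosome genes was not tested. In Flp-In cells, where 16.6% of all genes passed, 0 of 8 autophagy and 0 of 8 lysosome genes passed (0 and 1 at an unadjusted p under 0.05; edgeR), and 2 of 10 in the proteasome list did. Among 10 partners ELP2, an Elongator subunit, and TUBA1B rose, while KATNA1, which severs microtubules, and SPTSSA, a partner of SPTLC1, were among those that fell (-0.58 and -0.73). By gene counts each of the 4 lists, with 13 to 28 genes tested, had at most 3 up and 1 down in any D262V comparison with WT. Of all genes 3.67% passed in undifferentiated, 6.08% in differentiated homozygous, 16.4% in heterozygous and 5.84% in Flp-In cells. In undifferentiated cells 0 of 20 lysosome genes passed, and in differentiated homozygous cells 0 of 28 partners did. In heterozygous cells 3 of 28 lysosome genes rose and 1 fell. In Flp-In cells ATG7 (of 13 autophagy genes tested) and LAMP1 (of 19 lysosome genes) rose.

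hnRNPA1 irCLIP clusters lay in 21 of the 27 members, and in 14 of them in all 4 lists; ANG, C21orf2, CHCHD10, CHMP2B, GRN and TUBA4A were not listed. The Flp-In lists held 1874 (WT) and 1770 (D262V) member clusters, of which 999 and 947 lay in ERBB4, a gene of 1163.1 kb, and the SH-SY5Y lists held 938 and 905. Per kb of gene the members ran from 0.35 (PFN1) to 1.62 (GLE1) in the Flp-In WT list, and 16 of 19 lay below the median of all listed genes, 0.91. In the SH-SY5Y WT list 11 of 18 lay below the median of 0.89. TBK1, at 1.12 to 1.20 clusters per kb, was above the median in all 4 lists. With 1 pooled list a group there is no replicate error, and these are descriptions.

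The clusters differed little between WT and D262V in most members. Of the member clusters in the WT list, 86.3% in Flp-In and 89.0% in SH-SY5Y cells were met by a D262V cluster at 1 base or more, against 83.0% and 84.8% of all clusters. Over the members present in both lists, D262V clusters numbered 0.95 (Flp-In) and 0.98 (SH-SY5Y) of WT clusters, and the whole lists 0.93 and 0.92. The cluster with the top score overlapped between WT and D262V in 14 of 18 members in Flp-In and 14 of 17 in SH-SY5Y cells. Members listed in only 1 of the 2 lists of a line are outside these counts. CCNF had 13 WT and 0 D262V clusters in SH-SY5Y but 21 and 21 in Flp-In cells. PFN1 had 1 and 0 in Flp-In and 1 and 1 in SH-SY5Y cells. GLE1, chosen after its values were seen, had 61 WT and 29 D262V clusters in Flp-In but 52 and 55 in SH-SY5Y cells. Inside its downstream flanking intron of the alternative exon (chr9:128507340-128508874) there were 7 and 1 in Flp-In and 4 and 4 in SH-SY5Y cells. The first intron of ANXA11 that contains the called donor choice held 23 WT and 21 D262V clusters in Flp-In cells, whereas ANXA11 was not listed in SH-SY5Y cells. The first intron of C9orf72 held 3 WT and 2 D262V clusters in SH-SY5Y cells and the gene was not listed in Flp-In cells. None was listed in the C21orf2 intron called in heterozygous cells, the OPTN and SQSTM1 introns above or GRN.

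**Figure D5:**
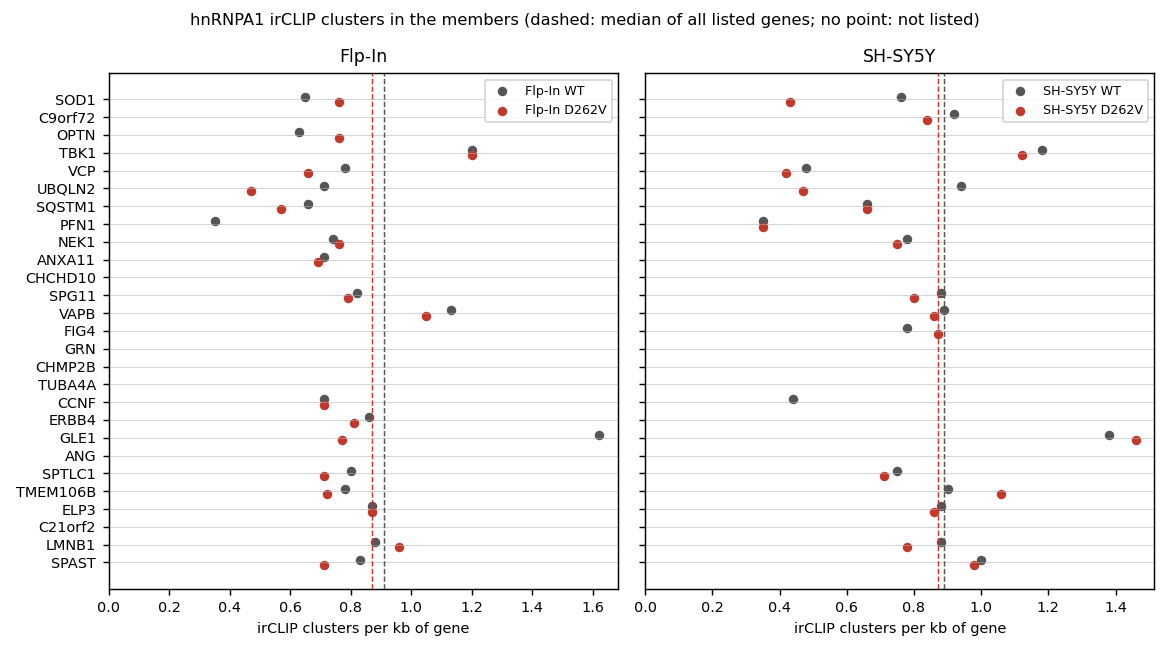
Clusters of hnRNPA1 irCLIP per kb of each member (rows) in the Flp-In (left) and SH-SY5Y (right) lists, WT grey and D262V red, each list pooled over its samples; dashed lines are the medians of all genes listed (0.87 to 0.91) and a missing point means that the gene was not listed. GLE1 drops from 1.62 to 0.77 in Flp-In cells and stays at 1.38 and 1.46 in SH-SY5Y cells.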

How the data were processed

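The members and gene lists were chosen with earlier results of these data known. Per the submitters' processing notes the authors used STAR 2.5.3a, HTSeq, DESeq2 and Cufflinks with hg38; no source used here gives their roles, the annotation or the strand setting. The authors deposited raw counts per gene and, in splicing tables in the format of JUM, counts per junction, usage as a percent of the reads of a splice choice, and p-values, per the file headers. The deposited irCLIP lists give a score per cluster in an unstated unit, pooled over samples.

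Reads in no gene were left out of library sizes. Junction counts were summed once per gene, and 6.4% of splicing table rows, which name no gene, were left out. Low counts were filtered with filterByExpr. Counts were tested in edgeR 4.0.16 (R 4.3.3; TMM, quasi-likelihood, adjusted over all genes), the differentiated groups in 1 fit, with DESeq2 1.42.0 as an alternative; the scripts were tested on simulated data. Intervals use a 95% level. Clusters were intersected with bedtools 2.31.1. Per-library values are given for members past a threshold or of a role with them, and at most 4 genes per list and comparison are named. S100A6, HEXA and the other listed genes follow that rule. A few uncalled junctions were chosen after their values were seen. Some results among the listed partner genes are not reported here.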

Additional observations from a re-analysis of the deposited data

Results flagged for a closer look

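SOD1 and FIG4 differed between homozygous and heterozygous differentiated cells by gene counts, by -0.599 and 2.097 on the log2 scale (adjusted p = 0.0112 and 0.0115, edgeR); their sets of 3 libraries did not overlap. The homozygous effect on SQSTM1 gene counts differed between differentiated and undifferentiated cells by -0.672 (adjusted p = 0.00861, edgeR). MGAT4B and MRNIP overlap that locus on the other strand.

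Usage of 1 ANXA11 junction was lower in every Flp-In D262V library than in any WT library (-9.42 points) and higher in every undifferentiated homozygous library (28.13 points); these are shares of different sets of acceptors, since the undifferentiated table lists 1 more. Reads into the alternative exon of GLE1 were higher in all homozygous libraries of differentiated cells (5.09 points) and lower in all of undifferentiated cells (-12.85 points), the latter mean set mostly by WT replicate 3 (32.8%, against 1.32 and 4.40% in the others). The skipping junction has the same sizes with the opposite sign (-5.09 and 12.85 points) because the shares of the choice sum to 100%. The other end of this exon overlapped between groups in both states. The selection of listed events favours groups that do not overlap, and the differences between these effects were not tested.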

How the results depend on the processing

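Of 196 alternatives for members past the threshold, 145 kept the call, 51 lost it and 0 reversed. By gene counts, DESeq2 called 1 member in undifferentiated cells, and a fit of only the 6 libraries compared called 2 (SQSTM1 and PFN1) in differentiated homozygous cells. Leaving out 1 library gave 1 to 3 members in heterozygous, 0 to 2 in Flp-In, 1 to 4 in the homozygous against heterozygous and 5 to 11 in the WT state comparison. By junction reads it gave 0 to 2 in undifferentiated, 0 to 3 in homozygous (0 without WT replicate 2, 1 without homozygous replicate 3) and 0 to 3 in heterozygous cells, where the most-read junction alone gave 2. For usage, a difference of 5 points gave 1 member (ELP3) in undifferentiated cells, 50 reads gave 0 in heterozygous and 20 points gave 0 in Flp-In cells. The authors' unadjusted p, an alternative chosen after seeing the data, gave 4 in undifferentiated and 1 in homozygous cells. Clusters at or above the median score numbered 1136 and 1022 (Flp-In WT and D262V) and 404 and 428 (SH-SY5Y), and reciprocal overlap gave 73.2% and 77.4%. The causes were not tested.

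Same-numbered libraries did not deviate together (15 correlations from -0.052 to 0.05), so the numbers do not show a pairing. With the replicate block, junction reads called 3 members (ELP3, SPAST and SQSTM1) in heterozygous cells instead of 0 and 2 instead of 3 in homozygous cells, and gene counts called 8 instead of 10 between the WT states; the other counts did not move. Members with few gene counts, such as CHMP2B, ERBB4, ANG and CHCHD10, could not be tested in some or all comparisons.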
